A study of Mus musculus with 72 samples.

Results

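The 10 genes Sec61a1, Sec61b, Sec61g, Sec62, Sec63, Ssr1, Ssr2, Ssr3, Srpr and Srp54a encode parts of the machinery that recognises signal sequences and moves proteins into or across the membrane of the endoplasmic reticulum (ER). They were taken by symbol from the 51826 genes in the count files, by a rule that uses no measured value, though with earlier results of these data known, and all 10 passed the filter on low counts in each test across genes below. The cells were E14TG2a, a mouse embryonic stem cell (mESC) line, kept in 2i medium with LIF, which holds the cells in the naive pluripotent state. They were fed 4-thiouridine (4sU), a uridine analog that new RNA takes up and that is read as a T-to-C (T2C) conversion after alkylation (SLAM-seq), and were opened with detergents in sequence into a cytosolic, a membrane and a nuclear fraction beside whole-cell RNA. Of 72 libraries, 18 per fraction, 64 were used here, 16 per fraction from 16 labeled cultures of 6 replicates: 15, 20 and 30 min in replicates 1 and 2 (pair A), 20, 40 and 60 min in replicates 3 and 4 (pair B), and 60 and 120 min in replicates 5 and 6 (pair C). The 8 libraries of 120 min in replicates 3 and 4 were set aside. The study's methods list 2 replicates of 120 min without naming them. That these 8 libraries are the ones it left out is inferred. By the labels 4sU was given at 500 µM up to 40 min and at 100 µM for 60 and 120 min. The study's methods also describe 60 min at 500 µM, so the 60 min values are given by pair of replicates. The cytosolic T2C conversion rate at 60 min was 5.83 and 7.57% in replicates 3 and 4 and 2.38 and 2.58% in replicates 5 and 6. The methods exclude samples of 500 µM beyond 60 min but do not name them. Given the rates at 60 min, the label of 100 µM for replicates 3 and 4 is in doubt. All groups share the line, the medium, 4sU and cycloheximide, which was added at harvest and holds ribosomes on their mRNA, and libraries without 4sU were not analysed here. Per the study's methods the replicates were passaged independently. Several labeling times of one replicate count as separate samples in the fits across genes.

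A protein bound for the ER usually starts with, or contains early on, a hydrophobic stretch. As that stretch leaves the ribosome it is bound by the signal recognition particle (SRP), whose Srp54 subunit makes the contact, and the complex docks at the SRP receptor, whose alpha subunit is encoded by Srpr. The chain then enters the Sec61 channel, made of Sec61a1, Sec61b and Sec61g, with help from Sec62, Sec63 and the translocon-associated protein complex (TRAP: Ssr1, Ssr2, Ssr3), and the mRNA is thereby held at the membrane while it is translated. Tail-anchored proteins such as Sec61b and Sec61g carry their only hydrophobic stretch near the end, where it leaves the ribosome only when synthesis is nearly over, and are inserted by other routes.

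The coding sequences of 4 members show this difference in position and are printed for the stretch alone. They were read from the GENCODE M21 transcripts of GRCm38, 5′ to 3′ on the coding strand, and the capitals mark the most hydrophobic window of 19 codons in the first stretch whose windows reach a mean of 1.6 on the Kyte-Doolittle hydropathy scale. The lower-case codons on each side are flanks.
Sec61a1: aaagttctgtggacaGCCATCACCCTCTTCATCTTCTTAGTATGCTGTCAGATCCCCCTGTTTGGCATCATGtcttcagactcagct
Ssr2: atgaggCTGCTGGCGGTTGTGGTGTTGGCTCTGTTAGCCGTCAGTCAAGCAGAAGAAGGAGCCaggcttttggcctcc
Sec61b: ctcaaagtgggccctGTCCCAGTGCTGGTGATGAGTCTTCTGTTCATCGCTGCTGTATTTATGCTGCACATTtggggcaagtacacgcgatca
Sec61g: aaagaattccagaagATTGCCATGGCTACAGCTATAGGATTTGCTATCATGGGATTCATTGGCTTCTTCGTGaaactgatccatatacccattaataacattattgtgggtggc
In Sec61a1, the multispanning channel subunit (chr6:88503579-88518905, minus strand), the window starts at codon 36 of 476, which leaves 441 codons from there to the end. In Ssr2, the TRAP beta subunit (chr3:88575876-88588419, plus strand), it starts at codon 3 of 183, in the signal peptide. In Sec61b (chr4:47474658-47483242, plus strand) it starts at codon 71 of 96 and in Sec61g (chr11:16500530-16508484, minus strand) at codon 36 of 68, so that only 26 and 33 codons remain from its first codon to the end of the protein. Among the other members this window started at codon 3 of 286 in Ssr1, codon 16 of 760 in Sec63, codon 58 of 185 in Ssr3 and codon 197 of 398 in Sec62. Srpr (636 residues) and Srp54a (504 residues) held no such window.

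Depth was 15382522 to 52975732 gene-assigned reads per library, and the estimated T2C conversion rate in new RNA was 2.07 to 8.29%. The sum over 6 markers of naive stem cells was 1974 to 7380 TPM, a level normalised to transcript length and library, against 8.23 to 23.4 for 10 markers of other cells. Reads of mitochondrially encoded mRNAs, relative to those of nuclear-encoded genes, were 4.62 to 18.3% in the membrane fraction against 0.0263 to 0.204% in the cytosol. The 3 nuclear RNAs Malat1, Neat1 and Kcnq1ot1 summed to 65.9 to 175 TPM in the membrane and 25.0 to 84.7 TPM in the cytosol. In the nucleus they summed to 91.4 to 985 TPM. Most of each sum was Malat1, and Neat1 went the other way, with medians of 5.83 TPM in the membrane and 11.9 TPM in the cytosol. The membrane fraction thus held material of other membranes and, by Malat1, some nuclear RNA, whose part in the results was not tested. In the 2 whole-cell libraries of replicate 6 the share of new RNA went against the labels: it was lower at 120 than at 60 min for 10 of 10 members, and for 0 of 10 in replicate 5. The whole-cell levels and half-lives of the channel subunits, the nearest genes, the nuclear comparison and the edgeR slopes are given with and without them.

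Transcripts of 7 members had far higher TPM in the membrane than in the cytosolic fraction, whereas the tail-anchored channel subunits had about equal TPM in both. Since each library is scaled to a common sum, equal TPM is not an equal number of molecules. The paper estimates that the membrane fraction holds more of the mRNA than the cytosol, and no such factor was applied here. The membrane libraries all lay above the cytosolic ones for 7 of the 10 members, against 12.2% of the 14717 genes with a mean of at least 1.5 TPM in a subcellular fraction, and the reverse held for 0 members, against 2.45%. Levels are given in TPM, counts per base of exon, scaled to one common sum in each library, as lowest, median and highest of 16 libraries. Sec61a1 was at 174, 256 and 365 TPM in the membrane and at 8.18, 22.6 and 45.1 TPM in the cytosol. The membrane and cytosolic libraries did not overlap, and whole cells (83.7, 164 and 303 TPM) and nuclei (60.1, 105 and 148 TPM) lay between them by their medians. Its partner Sec61b was at 154, 205 and 323 TPM in the membrane and 145, 207 and 244 TPM in the cytosol, and Sec61g at 62.9, 80.3 and 130.4 TPM against 67.3, 83.8 and 112 TPM. For both of these the fractions overlapped. In whole cells Sec61b reached 104, 149.8 and 203 TPM, Sec61g 55.9, 64.6 and 92.8 TPM, and in nuclei they were at 51.4, 150.3 and 214 TPM and 28.7, 70.9 and 79.0 TPM. Without the 2 whole-cell libraries of replicate 6 the whole-cell medians were 172 TPM for Sec61a1, 148 TPM for Sec61b and 64 TPM for Sec61g. Fewer cells and less RNA per cell cannot be told apart in such bulk samples.

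**Figure D1:**
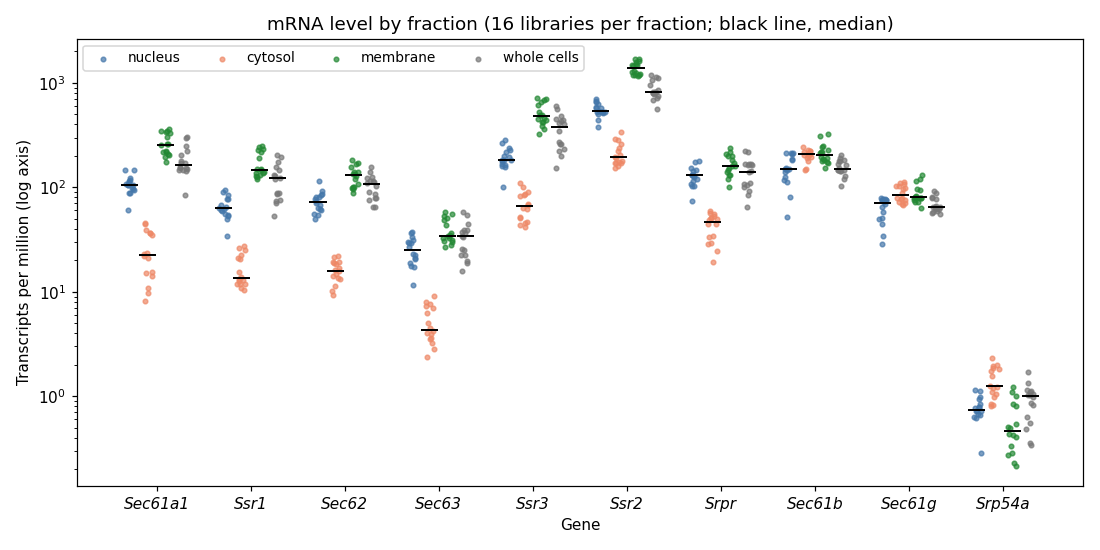
Level of each member (TPM, log axis) in every library, coloured by fraction, with the median of the 16 libraries of a fraction as a black line. The cytosolic libraries lie below all membrane libraries for Sec61a1, Sec62, Sec63, Ssr1, Ssr2, Ssr3 and Srpr and overlap with them for Sec61b, Sec61g and Srp54a.

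The TRAP subunits sit beside the channel and bind nascent chains, and 2 of them, Ssr2 and Ssr3, had the highest median membrane levels of the 10 members. Ssr2 stood at 1166, 1381 and 1687 TPM in the membrane and 153, 194 and 336 TPM in the cytosol, Ssr3 at 321, 477 and 716 TPM against 41.8, 65.8 and 110.3 TPM, and Ssr1 at 121, 148 and 247 TPM against 10.4, 13.6 and 27.6 TPM. None of the 3 overlapped between the fractions. Sec62 and Sec63 form the accessory complex that takes up chains delivered without SRP and recruits the luminal chaperone BiP. Sec62 was at 87.3, 131 and 182 TPM in the membrane and 9.39, 15.9 and 22 TPM in the cytosol, and Sec63 at 26.9, 34.5 and 57.9 TPM against 2.37, 4.33 and 9.15 TPM, again without overlap.

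The message of the receptor subunit Srpr, a protein that attaches to the ER peripherally through its partner Srprb, was at 101, 159 and 238 TPM in the membrane and 19.5, 46.8 and 60.0 TPM in the cytosol. The fractions did not overlap, although Srpr holds no hydrophobic window. Srp54a, the soluble SRP subunit, was listed at 0.216, 0.463 and 1.22 TPM in the membrane and 0.811, 1.24 and 2.32 TPM in the cytosol, from 10 to 64 and 42 to 109 reads per library. The Srp54a values are uncertain. Its T2C table held 808 reference T positions per counted read, against a median of 30.0 over 14092 genes and 29.6 to 54.1 in the other members. Its copies Srp54b (2 reads in 64 libraries) and Srp54c (153 positions per read) stood out likewise. Reads that align to more than 1 of such near-identical copies are not in the counts. The 54.1 was that of Sec61g, above the 49.5 that most of these genes stay under. What this does to the shares of Sec61g was not tested.

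Membrane over cytosol was then taken within each culture. The ratio for Sec61a1 was 6.66-fold at its lowest, 10.7-fold at the median and 24.7-fold at its highest over 16 cultures, and for Ssr1 6.96, 10.5 and 12.8-fold. The medians were 7.63-fold for Sec62, 7.65-fold for Sec63, 7.42-fold for Ssr3, 6.70-fold for Ssr2 and 3.81-fold for Srpr, each higher in the membrane in 16 of 16 cultures. Sec61b had 0.631, 1.05 and 1.5-fold and was higher in the membrane in 9 of 16 cultures, Sec61g 0.734, 0.975 and 1.27-fold and 7 of 16. Srp54a had 0.181, 0.394 and 0.627-fold and 0 of 16. Averaged by replicate, the log2 ratios were 3.54 ± 0.49 for Sec61a1, 1.97 ± 0.24 for Srpr, 0.08 ± 0.16 for Sec61b, -0.03 ± 0.10 for Sec61g and -1.44 ± 0.41 for Srp54a (SD, n = 6). Neighbours in this order that did not differ by more than 1 SD of their paired difference were Sec61a1 and Ssr1, Sec62 and Sec63, Sec63 and Ssr3, Ssr3 and Ssr2, and Sec61b and Sec61g.

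**Figure D2:**
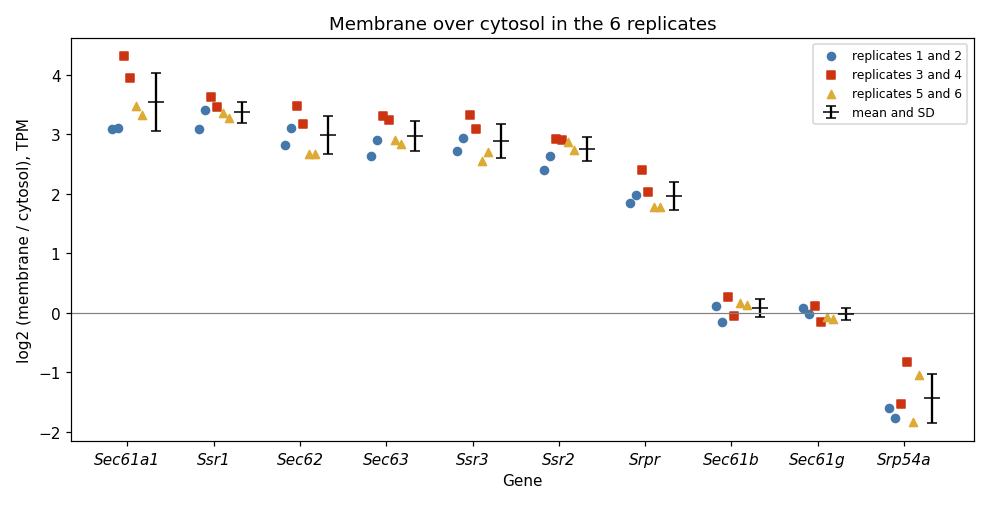
Log2 ratio of TPM, membrane over cytosol, of each member, with one point per replicate (mean over its cultures, marked by pair of replicates) and the mean and SD of the 6 replicates as a black bar. Sec61b and Sec61g lie near 0, with means of 0.08 and -0.03, while Sec61a1 lies at 3.54 and Srp54a at -1.44.

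Within one library the ratio of one gene to another does not depend on library scaling, so pairs of members were compared by an exact two-sided sign-flip permutation test over the 6 replicates, whose smallest p is 0.031, with adjustment over the 4 pairs tested. The log2 membrane over cytosol ratio of Sec61b was below that of Sec61a1 in every replicate, by -4.04 to -2.98, with a mean difference of -3.46 ± 0.450 (SD, n = 6, exact p = 0.031, adjusted p = 0.0417). Sec61g was below Sec61a1 by -4.2 to -3.01, with a mean of -3.57 ± 0.492 (SD, n = 6, exact p = 0.031, adjusted p = 0.0417). The difference of Sec61b from Sec61g was 0.10 ± 0.143 with a range of -0.13 to 0.24 (SD, n = 6, exact p = 0.156, adjusted p = 0.156), and Srp54a was below Srpr by a mean of -3.41 ± 0.468 (SD, n = 6, exact p = 0.031, adjusted p = 0.0417). Without any one replicate the smallest p is 0.0625 and no pair can pass.

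Across all genes the fractions were compared with edgeR's quasi-likelihood test on the counts, and a gene was called where its Benjamini-Hochberg adjusted p was under 0.05 and its log2 fold change was past 0.5 in either direction. In the membrane 8 of the 10 members were called higher, against 24.6% of 14506 genes, and 1 was called lower, against 7.60%. The scaling used here (TMM) set the median of all genes at a log2 of -0.09. The log2 fold changes were 3.98 for Sec61a1 (SE 0.229, adjusted p = 1.89e-17), 3.92 for Ssr1 (SE 0.179, adjusted p = 2.70e-20), 3.56 for Sec62, 3.50 for Sec63, 3.45 for Ssr3, 3.26 for Ssr2 and 2.52 for Srpr (SE 0.159, adjusted p = 2.62e-16). Sec61b was called higher at 0.61 (SE 0.0970, adjusted p = 1.51e-06), and Sec61g, at 0.49 (SE 0.103, adjusted p = 1.40e-04), stayed under the fold limit. Srp54a was called lower at -0.85 (SE 0.202, adjusted p = 5.35e-04), on its few uniquely counted reads. With scaling by library size alone, where the median of all genes was -0.49, Sec61b was at 0.21 and Sec61g at 0.10, under the fold limit, and relative to the median of all genes Sec61b stood at 0.70 under either scaling. Within pairs A, B and C the log2 fold changes were 3.92, 4.31 and 3.90 for Sec61a1, 0.82, 0.35 and 0.65 for Sec61b and 0.86, 0.20 and 0.41 for Sec61g.

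To place the members among other transcripts, the ratio of mean TPM was ranked over the 14717 genes with a mean of at least 1.5 TPM in the nuclear, cytosolic or membrane fraction, which Srp54a did not reach. Sec61a1 was above 97.0% of these genes, Ssr1 above 96.7%, Sec62 above 94.9%, Sec63 above 94.3%, Ssr3 above 94.1%, Ssr2 above 92.9% and Srpr above 88.1%. Sec61b, with a ratio of 1.06, was above 76.0% and Sec61g, with 0.991, above 74.3%, since the median gene had a ratio of 0.663. Genes were also sorted by where the first hydrophobic window of their principal coding transcript starts, and a gene with a start in the last 50 residues was put in that class first, which places the short Sec61g there although its window also starts within the first 50. The median ratio was 4.98 in the 1683 genes with a start in the first 50 residues, the class of Sec61a1, Ssr1, Ssr2 and Sec63, and 68.4% of them reached 3. It was 0.696 in the 233 genes with a start in the last 50 residues, 0.857 in the 1881 genes with a start further inside and 0.612 in the 7969 without a window. Sec61b and Sec61g were above 67.8% and 66.5% of the 233 genes of their own class, and Srpr was in the class without a window, of which 1.93% reached 3.

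Genes of ER targeting and insertion were counted from lists of 72 genes. The lists include the 10 members, 8 in translocon and TRAP and 2 in SRP and its receptor. Counts in these 2 lists thus repeat part of the result above. Among 9 tested genes of the SRP and its receptor the 2 receptor subunits were called higher in the membrane, Srprb at 3.41 and Srpr at 2.52, and 2 were called lower, the SRP subunits Srp54a at -0.85 and Srp9 at -0.68; the median log2 fold change was -0.17. Of 12 translocon and TRAP genes 11 were called higher (median 3.28), with Sec61g as the exception. All 5 genes of the signal peptidase, which removes signal sequences, were called higher (median 3.49), from Sec11a at 3.63 and Spcs2 at 3.55 down to Sec11c at 2.72 and Spcs1 at 2.62. Of the 12 genes of the oligosaccharyltransferase, which adds N-linked glycans, 11 were called higher (median 3.75), with Ddost at 4.92, Rpn1 at 4.91, Tmem258 at 1.93, and Ost4, which codes for a very small subunit, at 0.07 (adjusted p = 0.487).

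Of the 10 genes of the ER membrane complex (EMC), an insertase, 7 were called higher (median 2.53), led by Emc3 at 3.92 and Emc7 at 3.46, whereas Emc2, a subunit that faces the cytosol, was at -0.49 (adjusted p = 0.0752) and Emc9 at 0.27 (adjusted p = 0.0603). All 6 genes of the multipass translocon were called higher (median 3.90), from Tmco1 at 4.35 and Nomo1 at 4.10 down to Tmem147 at 2.95 and Wdr83os at 1.32. The soluble factors that carry tail-anchored proteins had 1 of 5 genes called higher, Get4 at 0.80, with Asna1, the targeting ATPase, at 0.01, Sgta at -0.08 and Ubl4a at -0.44 (median -0.02). Their membrane receptor subunit Wrb was at 2.84 and called higher. Of 10 other tail-anchored ER proteins none was called higher and Serp1, at -0.68, was called lower; Hmox1 was at 0.19, Serp2 at -0.01 and Vapb at -0.44, and the median was -0.25. Sec61b and Sec61g lay above the highest of these 10 in the same fit.

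**Figure D3:**
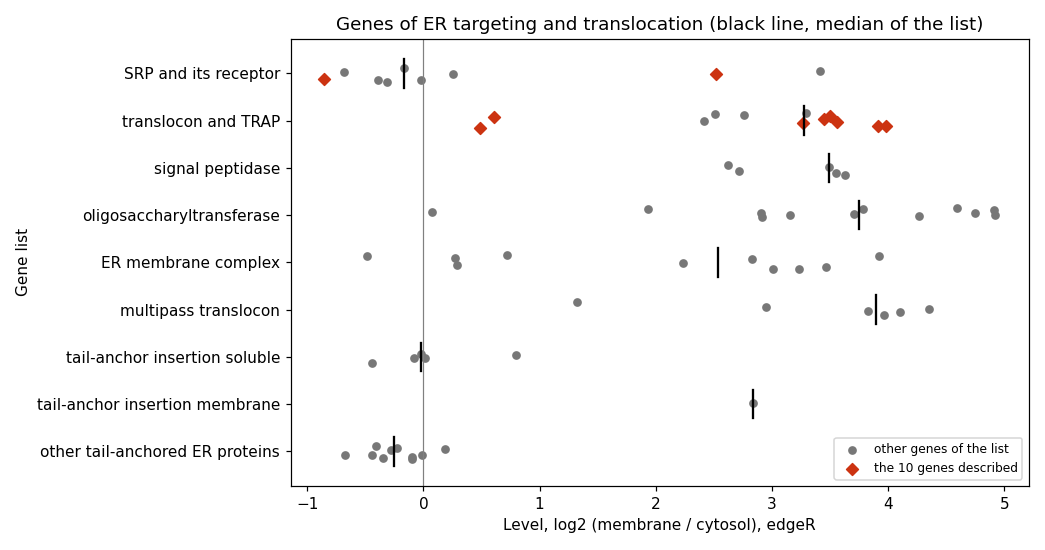
Log2 fold change of membrane over cytosol (edgeR, horizontal axis) for every tested gene of the ER targeting and insertion lists, with the 10 members as red diamonds, other genes as grey points and the median of each list as a black line. List medians run from -0.25 in the other tail-anchored ER proteins to 3.90 in the multipass translocon.

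The genes whose log2(TPM + 1) moved most like a member over the 64 libraries and 14772 genes, given as a description since the libraries share depth and fraction, were S1pr2 (Pearson r = 0.995), Rtn3 (r = 0.994) and Shisa5 (r = 0.994) for Sec61a1. For Sec61b they were Hint1 (r = 0.950), Rps27l (r = 0.943) and Uqcrq (r = 0.936), and for Sec61g Rps27l (r = 0.922), Hint1 (r = 0.914) and Gm10177 (r = 0.910). The same 3 genes came out in the same order for each over the 62 libraries without the 2 of replicate 6.

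Nuclear levels were set against whole cells, in libraries that the membrane over cytosol test did not use. None of the 10 members was called higher in the nucleus, against 13.5% of 15293 genes, and 7 were called lower, against 14.9%, with the median of all genes at a log2 of 0.02. In this edgeR test 9 members had an unadjusted p under 0.05, as had 8490 of the 15293 genes. Ssr1 was at -1.19, Ssr3 at -1.18, Sec61a1 at -1.08 (SE 0.115, adjusted p = 2.35e-09), Ssr2 at -0.96, Sec62 at -0.77, Sec63 at -0.69 and Srp54a at -0.52. Srpr was at -0.40 (adjusted p = 0.00607), under the fold limit, Sec61g at -0.38 (adjusted p = 0.0523) and Sec61b at -0.26 (adjusted p = 0.225). The Srp54a call did not hold: it was at -0.48 with the culture as a block, -0.48 without replicate 3, -0.48 without replicate 4, -0.37 by library size alone and -0.07 within pair A (adjusted p = 0.846). Sec63 was at -0.34 within pair B, under the fold limit. Without the 2 whole-cell libraries of replicate 6 the same 7 members were called.

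In whole cells no member was called for a change with labeling time, though changes within the SE of the slopes would be missed. On the log2 scale that SE was smallest for Sec62, at 0.0955 per hour, and largest for Srp54a, at 0.323. The slope per hour ran from -0.20 to 0.10 on the log2 scale over the 10 members, with 0 called by edgeR, 0 at an unadjusted p under 0.05, and 0 of 16701 genes called in either direction (0% and 0%; 213 genes at an unadjusted p under 0.05). Without replicate 6 the slopes ran from -0.28 to 0.18 and 0 members were called. DESeq2 also called 0 genes, with 221 genes and 0 members at an unadjusted p under 0.05.

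The share of new RNA, the T2C fraction divided by the conversion rate of the library, was higher at 120 than at 15 min for every member and fraction, and for the 7 membrane-rich members it was lower in the membrane than in the cytosol in every culture of 30 to 120 min. For Sec61a1 the share after 20 min in pair B was 0.0316 to 0.0969 in the cytosol, 0.0177 to 0.0208 in the membrane and 0.102 to 0.133 in the nucleus (the 2 replicates of a pair throughout). After 60 min it was 0.185 to 0.191 in the cytosol and 0.0577 to 0.0600 in the membrane in pair B, and 0.272 to 0.280 and 0.0687 to 0.0810 in pair C. After 120 min it was 0.329 to 0.331 in the cytosol, 0.163 to 0.191 in the membrane and 0.279 to 0.302 in the nucleus. The cytosolic pool of Sec61a1 thus had a higher share of new RNA than the membrane pool at each of these times, although the membrane pool was the larger one. Shares at 15 min, 0.0123 to 0.0199 in the cytosol and 0.00987 to 0.0113 in the membrane for Sec61a1, are near the level that sequencing error can give, and no error rate from unlabeled cells was subtracted.

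Sec61b and Sec61g had low shares of new RNA in every pool. At 120 min Sec61b had shares of 0.0934 to 0.102 in the cytosol, 0.0991 to 0.105 in the membrane and 0.111 to 0.126 in the nucleus. Sec61g had 0.0875 to 0.0925, 0.0673 to 0.0764 and 0.121 to 0.121. The median gene was at 0.367 to 0.372 in the cytosol, 0.286 to 0.318 in the membrane and 0.413 to 0.445 in the nucleus, above both tail-anchored subunits in each pool. Sec62 and Sec63 had the highest cytosolic and nuclear shares of the members at 120 min. In the same cultures the share of Sec62 was 0.518 to 0.522 in the cytosol and 0.393 to 0.420 in the membrane, and that of Sec63 0.530 to 0.715 and 0.256 to 0.263. The TRAP messages had cytosolic shares of 0.430 to 0.432 for Ssr1, 0.323 to 0.347 for Ssr3 and 0.232 to 0.234 for Ssr2 and membrane shares of 0.285 to 0.317, 0.188 to 0.189 and 0.160 to 0.178. Srpr had 0.296 to 0.328 in the cytosol and 0.190 to 0.223 in the membrane, and Srp54a 0.172 to 0.199 and 0.102 to 0.122.

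**Figure D4:**
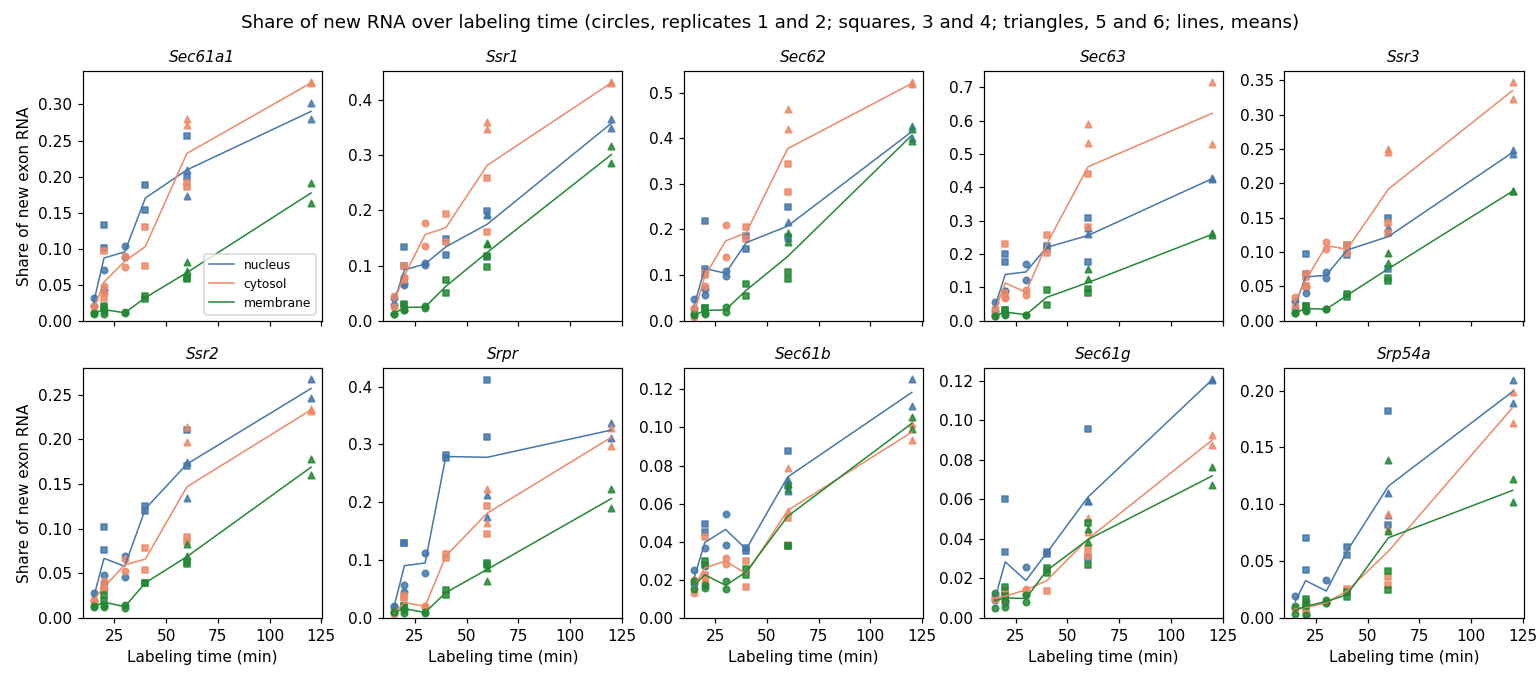
Share of new RNA in exons (a ratio, with its own vertical scale in each panel) against labeling time in min, one panel per member, with one point per nuclear, cytosolic or membrane library, marked by pair of replicates, and lines through the means. At 120 min the cytosolic share is 0.329 to 0.331 for Sec61a1 and 0.0934 to 0.102 for Sec61b.

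The shares were compared with limma on the log2 scale in the 10 cultures of 30 to 120 min. In the membrane 7 of 10 members had a lower share than in the cytosol at an adjusted p under 0.05, against 11.6% of 11976 genes, and 0 had a higher one, against 3.92%. Each of the 7 was lower in 10 of 10 cultures. The log2 difference was -1.86 for Sec63 (SE 0.149, adjusted p = 1.79e-07), -1.80 for Sec61a1 (SE 0.185, adjusted p = 2.30e-06), -1.55 for Sec62, -1.53 for Ssr3, -1.38 for Ssr1, -1.08 for Ssr2 and -1.05 for Srpr (SE 0.121, adjusted p = 7.09e-06). Sec61b was at -0.16 (SE 0.147, adjusted p = 0.525) and lower in 7 of 10 cultures, Sec61g at -0.11 (SE 0.160, adjusted p = 0.726) and lower in 7, and Srp54a at -0.10 (SE 0.154, adjusted p = 0.742) and lower in 6. Within pair A alone, with only its 2 cultures of 30 min, no member passed, although the differences were wider, at -2.89 for Sec61a1, -2.87 for Sec62, -2.70 for Ssr3 and -2.65 for Ssr1 (adjusted p = 0.0627 to 0.0672). All genes showed a like gradient with their level: the median difference in share was 0.08 in 7161 genes with a log2 membrane over cytosol level under 0, -0.06 between 0 and 1, -0.48 between 1 and 2, -0.87 between 2 and 3 and -1.38 in 880 genes over 3. Both measures use the same libraries, and this is a description across genes.

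**Figure D5:**
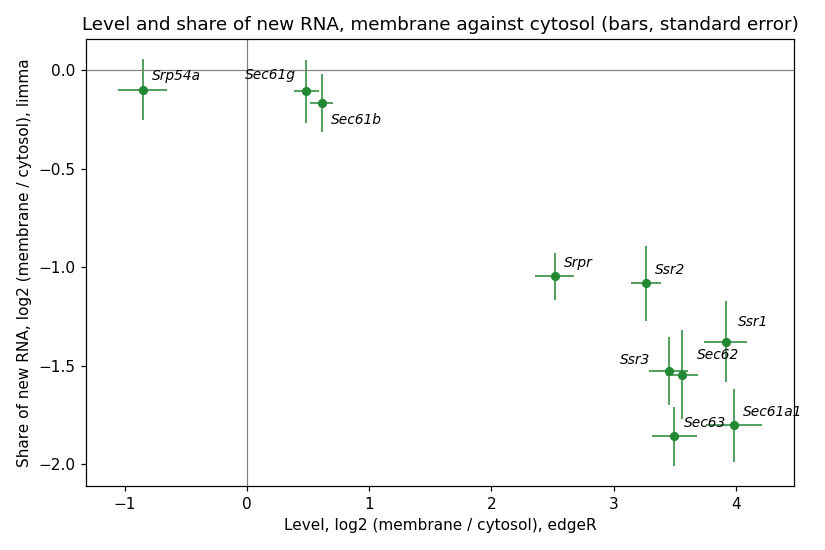
Log2 difference in share of new RNA, membrane over cytosol (limma, vertical axis), against the log2 fold change in level (edgeR, horizontal axis) for the 10 members, with bars for the standard errors. Sec61b and Sec61g lie near 0 in share, at -0.16 and -0.11, and Sec61a1 lies at -1.80 with a level of 3.98.

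The nucleus was compared with the same cytosolic libraries. Of all 12039 genes 71.1% had a higher nuclear share and 3.02% a lower one, and the members were divided. The 4 members called higher were Srpr at 0.95 (adjusted p = 0.00161), Srp54a at 0.86 (adjusted p = 0.00493), Sec61g at 0.53 (adjusted p = 0.0469) and Sec61b at 0.49 (adjusted p = 0.0316), beside a median of all genes of 0.95. The 3 called lower were Sec62 at -0.59 (adjusted p = 0.00260), Ssr1 at -0.50 (adjusted p = 0.0105) and Ssr3 at -0.49 (adjusted p = 0.0174). Sec61a1 at 0.10, Ssr2 at 0.33 and Sec63 at -0.30 were not called. Within pairs A, B and C Srpr was at 2.19, 1.24 and 0.03 and Srp54a at 0.72, 1.61 and 0.17. Sec61b was at 0.62, 0.75 and 0.17 and Sec61g at 0.32, 0.79 and 0.38. The median of all genes also fell, from 1.36 and 1.40 in pairs A and B to 0.19 in pair C. With the culture as a block 4 calls remained in number, and Sec61g (adjusted p = 0.0850), Sec61b (adjusted p = 0.0906) and Ssr3 (adjusted p = 0.0653) did not pass.

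Introns, which mark pre-mRNA, were labeled well before exons in the nucleus. In the libraries of 15 to 40 min all 10 members had a higher intron than exon share, against 96.0% of 10717 genes. At 15 min the intron share was 0.573 to 0.651 for Sec61b, 0.254 to 0.311 for Sec61g, 0.127 to 0.129 for Sec61a1 and 0.0951 to 0.0951 for Srpr, beside nuclear exon shares of 0.0179 to 0.0253, 0.00884 to 0.0101, 0.0198 to 0.0310 and 0.0197 to 0.0205. The log2 difference was widest for Sec61g at 5.11 (SE 0.221, adjusted p = 7.91e-14), Sec61b at 4.78 (SE 0.122, adjusted p = 1.38e-15) and Srp54a at 4.2. It was 3.08 for Ssr2, 2.83 for Ssr3, 2.75 for Ssr1, 2.39 for Sec61a1, 2.06 for Srpr, 2.03 for Sec62 and 1.69 for Sec63, beside a median of all genes of 2.18. Some nuclear intron shares passed 1, up to 1.36 for Sec61g and 1.31 for Sec61b at 40 min, so the estimated conversion rate does not bound them.

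An apparent half-life, the time in which a pool would be 50% new if it filled as 1 - exp(-k(t - 5 min)), was fitted to each pool as a description. For Sec61a1 it was 178 ± 26.3 min in the cytosol, 479.6 ± 345 min in the membrane, 185 ± 40.7 min in the nucleus and 396 ± 120.2 min in whole cells (SD over single-replicate fits, n = 6). For Sec61b it was 720.4 ± 146, 729.6 ± 100.4, 552 ± 121 and 784 ± 215 min, and for Sec61g 899 ± 159.6, 1034 ± 331, 617 ± 311 and 970.1 ± 282 min. The shortest were the cytosolic pools of Sec63 at 77.5 ± 58.7 min and Sec62 at 95.6 ± 18.5 min, whose membrane pools were at 296 ± 219 and 204 ± 241 min. The fit was made for the members alone, so no share over all genes can be set beside the counts. The pooled fit was longer in the membrane than in the cytosol for 10 of 10 members (9 to 10 when 1 replicate was left out). Replicate by replicate this order held in 6 of 6 for Sec61a1, Sec62, Sec63, Srpr, Ssr1, Ssr2 and Ssr3, in 5 for Sec61g and in 4 for Sec61b and Srp54a. The SDs span the different labeling times of the replicates. All times over 120 min lie beyond the labeling used here. Those of Sec61g in the cytosol, the membrane and whole cells are also longer than the cell cycle that the paper gives for mESCs. They should not be read as turnover times. Without the 2 whole-cell libraries of replicate 6 the whole-cell values were 375 min for Sec61a1, 688 min for Sec61b and 913 min for Sec61g.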

How the data were processed

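Total, nuclear, cytosolic and membrane poly(A) RNA was sequenced after 4sU labeling. The submitters' processing notes name STAR 2.7.6, HTSeq 0.11.1 and RSEM 1.3.3. The deposited counts are raw HTSeq reads per gene, and the deposited T2C tables give reference T counts, T2C counts, the conversion rate as a fraction estimated by the authors, and the share of new RNA per gene and intron as a ratio (T2C over T over conversion rate), with known variants left out. HTSeq summary rows (30.4 to 48.8% of all counted reads, with 19.4 to 34.9% as reads that aligned to more than 1 place) were left out, which lowers genes with near-identical copies. Symbols, lengths and coding sequences came from GENCODE M21 (99.6% of IDs matched).

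Counts were tested with edgeR 4.0.16 (TMM, filterByExpr) in R 4.3.3, with DESeq2 1.42.0 as an alternative. Shares were tested with limma 3.58.1 as log2 of (T2C counts + 0.5)/T over the conversion rate, for genes with 400 or more T counts in each library used, labeling time by pair of replicates as a factor, and Benjamini-Hochberg adjustment over all genes. Correlations used a pseudocount of 1 TPM. The tests across genes were first tested on simulated data. Fractions of one culture pair the samples: membrane and cytosol deviations correlated at 0.506 to 0.791 (median 0.673), over 0.1 in 16 of 16 cultures. Libraries of one replicate were treated as separate samples in these fits. The named genes are all members, the 2 highest and 2 lowest of each list and the 3 nearest genes by correlation. The members and lists were chosen with earlier results of these data known. Depth limits low shares: the smallest T2C count behind a share was 1, for Srp54a in the membrane. Intervals were not given for single shares.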

Additional observations from a re-analysis of the deposited data

Results flagged for a closer look

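Of 54 groups of 6 single-replicate values, 2 held a value far from the other 5, where chance gives about 1 in 20. The apparent nuclear half-life of Sec62 was 112 min in replicate 3, against 146 to 166 min in the others. The apparent cytosolic half-life of Ssr1 was 183 min in replicate 4, against 103 to 129 min in the others.

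The share of new RNA in the nucleus over the cytosol moved in opposite directions in different pairs of replicates for 2 members. For Sec61a1 the mean log2 ratio was 0.52 in pair B, with every culture of 40 and 60 min above 0, and -0.36 in pair C, with every culture below 0. For Sec63 it was 0.76 in pair A and -0.80 in pair C, again with no culture of 30 to 120 min against its pair. Pairs B and C share the 60 min time and by the labels its 4sU dose, though their conversion rates differed. At 60 min the ratio of shares for Sec61a1 was 1.38 and 1.04 in pair B and 0.77 and 0.62 in pair C. These pairs thus differed at the same labeling time. Pairs A and C, which differ for Sec63, share no labeling time and by the labels no dose, and these cannot be told apart from the pair. The differences were not tested.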

How the results depend on the processing

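The 9 members called in the membrane over cytosol level (8 higher, 1 lower) stayed between 8 and 10 when 1 replicate was left out, and the members called in the membrane over cytosol share stayed at 7. In single members, 4 level values in the membrane over cytosol lost and 3 gained a call while 133 kept theirs. The 4 lost were of Sec61b, at 0.21 by library size alone, 0.44 with no filter, 0.48 without replicate 1 and 0.35 within pair B. The 3 gained were of Sec61g, at 0.55 without replicate 3, 0.54 without replicate 4 and 0.86 within pair A. Of the share values, 8 in the membrane and 33 in the nucleus lost a call. The replicate block (each culture) changed no other call of a member than those given in the report. It gave 301 genes with a higher membrane share in place of 470, and 4 members in the nuclear share in place of 7. Leaving out 1 replicate gave 4 to 6 members there. Within pairs A, B and C, added after the data were seen, the nuclear share called 1, 3 and 4 members, and the membrane share called 0 in pair A.

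Genes called lower in the membrane were 1103, with 1723 by DESeq2, 6965 by library size alone, 3845 with no filter and 2241 within pair B. Genes called higher in the nucleus over whole cells were 2071, with 3356 by library size alone, 1280 to 2338 without 1 replicate and 1294, 3654 and 1267 within pairs A, B and C, and those called lower were 2281, with 1466 by library size alone. For the slope over labeling time, all 72 libraries gave 1 gene higher, no filter 1 lower, and no replicate block 26 higher and 92 lower. Genes with a higher membrane share were 1645 with libraries centred on their medians, 857 with all times, 213 to 399 without 1 replicate, and 0, 166 and 37 within pairs; genes with a lower one were 1394, with 0 in pair A and 474 in pair B. Genes with a higher nuclear share were 8565, with 2673 after centring and 3228 in pair C; those with a lower one were 363, with 3689 after centring, 187 with all times, 235 to 412 without 1 replicate, and 166, 145 and 1130 within pairs. Intron over exon calls after centring were 3176 higher and 3734 lower, in place of 10289 and 24, since centring removes the difference between the kinds of read.

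Values that changed sign were small or uncalled except after centring. The nuclear share then read -0.91 for Sec61a1, -0.52 for Sec61b, -0.48 for Sec61g, -0.68 for Ssr2, -0.064 for Srpr and -0.15 for Srp54a, and the intron difference -0.21 for Sec62, -0.56 for Sec63 and -0.19 for Srpr, so these directions hold only against the uncentred scale. Centring gave a membrane share of 0.029 for Sec61g and 0.038 for Srp54a. The membrane share was 0.058 for Sec61b in pair C, 0.26 for Sec61g in pair B, and for Srp54a 0.16 in pair A and 0.00038 without replicate 6. The nuclear share was -0.36 for Sec61a1 in pair C, -0.093 without replicate 3 and 0.24 at its highest without 1 replicate, 0.75 for Sec63 in pair A, and -0.062 and -0.14 for Ssr2 in pairs A and C. Sec61b in the nucleus over whole cells was 0.30 in pair C.

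Slopes that changed sign were, by library size alone, 0.057 for Sec61a1 and 0.089 for Sec63, with all 72 libraries 0.028 for Sec61a1, with no filter 0.0041 for Sec63, and with no replicate block 0.0039 for Sec61b, 0.15 for Sec61g, -0.28 for Ssr1, -0.10 for Ssr3, -0.066 for Srpr and 0.20 for Srp54a. Without 1 replicate they ran from -0.069 to 0.0050 for Sec61a1, -0.076 to 0.058 for Sec63, -0.049 to 0.090 for Ssr1, -0.23 to 0.038 for Ssr2, -0.069 to 0.18 for Ssr3 and -0.018 to 0.16 for Srpr. The Sec61b to Sec61a1 difference ran from -3.56 to -3.35 without 1 replicate, Sec61g to Sec61a1 from -3.68 to -3.44 and Srp54a to Srpr from -3.52 to -3.30, with 0 of 4 pairs called because 5 replicates allow no exact p under 0.0625. The cause of the other changes was not tested. Of the alternative values of the apparent half-life 328 moved by less than 1 SD and 2 by more. This is a weak check, since the SD spans replicates with different labeling times. It could exceed the value itself, as for Sec62 in the membrane at 204 ± 241 min. Depth limits shares of 15 to 20 min and all values of Srp54a.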

Other observations

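The 8 libraries of 120 min in replicates 3 and 4, which were set aside from the comparisons of the report, gave shares for Sec61a1 of 0.305 and 0.269 in the cytosol, 0.131 and 0.131 in the membrane and 0.285 and 0.277 in the nucleus. For Sec61b they were 0.0693 and 0.0664 in the cytosol and 0.0748 and 0.0675 in the membrane, and for Sec61g 0.0639 and 0.0585 and 0.0728 and 0.0462. In these libraries too the membrane share of Sec61a1 was below its cytosolic share and the tail-anchored subunits stayed below 0.1 in both fractions.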
